A study of Mus musculus with 16 samples.

Results

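The genes described here are 10 that mark lipid-associated macrophages (Apoe, Lpl, Abca1, Abcg1, Trem2, Gpnmb, Fabp4, Fabp5, Spp1 and Plin2), chosen by symbol from the 24421 genes of the count files. All 10 had a row, and all 10 passed the filter on low counts that left 9642 genes for testing. The cells came from subcutaneous tumours of MC38-Ova, a mouse colon adenocarcinoma line that expresses ovalbumin, grown in female C57BL/6 mice that carry the Kaede transgene. Kaede is a protein that turns from green to red under violet light, so that Kaede-red cells were in the tumour when it was illuminated and Kaede-green cells are those that entered later. Cells that were viable, positive for CD45, Kaede and CD11b, and negative for TER119 and NK1.1, were sorted by colour 24h or 72h after photoconversion, with 4 libraries for each colour and time (16 in all). Every library carried the same batch label and the treatment label Control. CD11b is also found on monocytes, granulocytes and some dendritic cells, so the sort enriches macrophages without isolating them. The points of the study's own plot of these libraries are described as tumours from independent mice, and no source states which Kaede-green and Kaede-red libraries share a tumour.

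Macrophages that take up much lipid, for example from dying cells, store it in droplets or pass it on. Apoe, Abca1 and Abcg1 belong to the export of cholesterol, Lpl releases fatty acids from lipoproteins, Fabp4 and Fabp5 carry fatty acids inside the cell, and Plin2 coats lipid droplets. Trem2 is a lipid-sensing receptor, Gpnmb is a membrane glycoprotein linked to lysosomes, and Spp1 encodes the secreted protein osteopontin; together with the others they mark the lipid-associated macrophages known from fat tissue, atherosclerotic plaques and tumours.

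Kaede-green and Kaede-red libraries differed in how many counts lay outside ribosomal RNA, and this bears on every value given here. Total counts per library ranged from 3216858 to 15423085 and did not differ detectably between the colours (log2 difference 0.23 over both times, p = 0.544 by exact permutation, -0.33 at 24h, p = 0.514, and 0.79 at 72h, p = 0.171). Rn45s, a ribosomal RNA transcript, took 86.5 to 93.4% of the counts among Kaede-green and 66.2 to 84.9% in Kaede-red libraries at 24h, and 79.0 to 91.0% and 55.8 to 73.8% at 72h. Outside Rn45s and the rows Lars2 and Mir6236, which also collect ribosomal reads, 247829 to 549987 counts were left among Kaede-green and 618803 to 5305788 in Kaede-red libraries. On the log2 scale this difference was 2.14 (exact permutation of the colours inside each time, two-sided p = 0.000408, which is the lowest value possible). Levels are therefore given in CPM, counts scaled to library size after TMM, a method that leans on most genes and not on the few largest. The TMM factors were 0.318 to 1.06 among Kaede-green and 1.19 to 3.85 among Kaede-red libraries. The CPM values are thus not shares of all counts of a library, and the differences between the colours rest on this scaling. The 10 genes together had 408 to 939 counts in a Kaede-green library and 2659 to 20514 in a Kaede-red library, so that their Kaede-green values are the less precise.

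**Figure D1:**
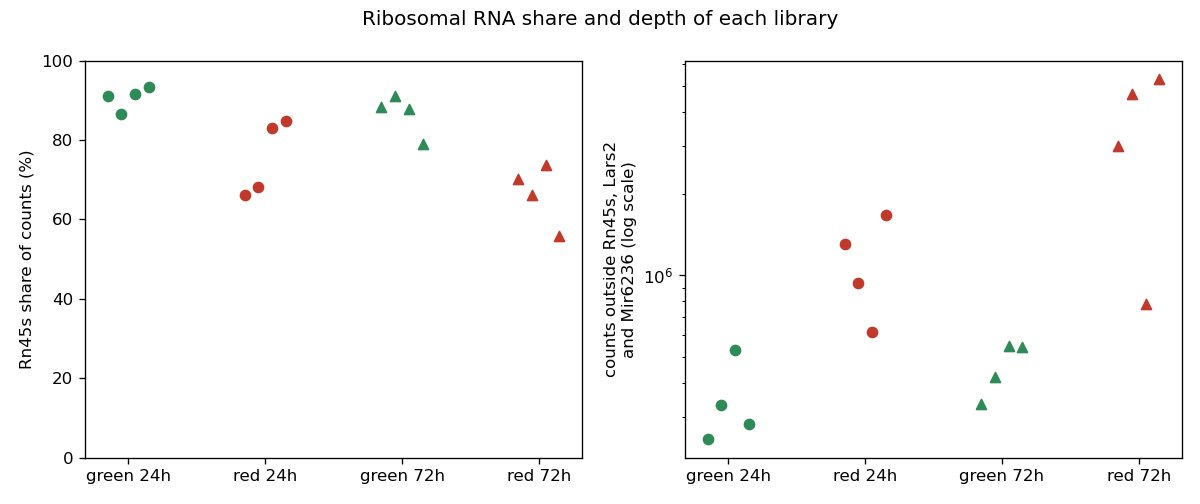
Rn45s share of all counts in percent (left) and counts outside Rn45s, Lars2 and Mir6236 on a log scale (right), 1 point per library, with circles for 24h and triangles for 72h. Kaede-green libraries lie at 79.0 to 93.4% and Kaede-red libraries at 55.8 to 84.9%, and every Kaede-red library has more counts outside the ribosomal rows than every Kaede-green library.

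Cells that had been in the tumour since photoconversion were compared first with newly arrived cells. Over both times, 6 of the 10 genes were higher in Kaede-red cells (Apoe, Abca1, Abcg1, Plin2, Gpnmb and Fabp5) and none was lower, where 10.05% of all tested genes were called higher and 10.3% lower. The median log2 fold change was 0.73 over the 10 genes and 0.06 over all 9642 tested genes. At 24h, 6 genes were higher in Kaede-red cells (Apoe, Abca1, Gpnmb, Fabp5, Spp1 and Plin2), beside 3.22% of all tested genes called higher and 4.28% lower. At 72h, 4 were higher (Apoe, Abca1, Abcg1 and Plin2), beside 8.06% of all tested genes called higher and 8.76% lower. The members' median log2 fold change was 1.04 at 24h and 0.43 at 72h, against 0.05 and 0.03 over all tested genes. Without Kaede-green replicate 2 at 72h the latter was 0.28 for the members. The 310 genes called higher at 24h became 194 or 198 without Kaede-red replicate 1 or 2 at 24h, and the 777 at 72h became 517 without Kaede-red replicate 1 at 72h. In such sorted pools a higher level can come from more cells that express a gene or from more RNA per cell, and these cannot be told apart. With the Rn45s share as a covariate, 2 members were called over both times (Abca1 and Fabp5), 2 at 24h (Fabp5 and Spp1) and 1 at 72h (Abca1), and the genes called in the whole table over both times fell from 1959 to 156. The members' median log2 fold change in that fit was 1.04 at 24h, 0.51 at 72h and 0.82 for both together, the last of which stood 0.75 above that of all genes. Scaled by library totals outside the ribosomal rows, the log2 fold changes of all genes moved up by a median of 0.20, the calls over both times went from 969 higher and 990 lower to 1920 and 621, and the members' median stood 0.66 above that of all genes, against 0.67 with TMM.

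**Figure D2:**
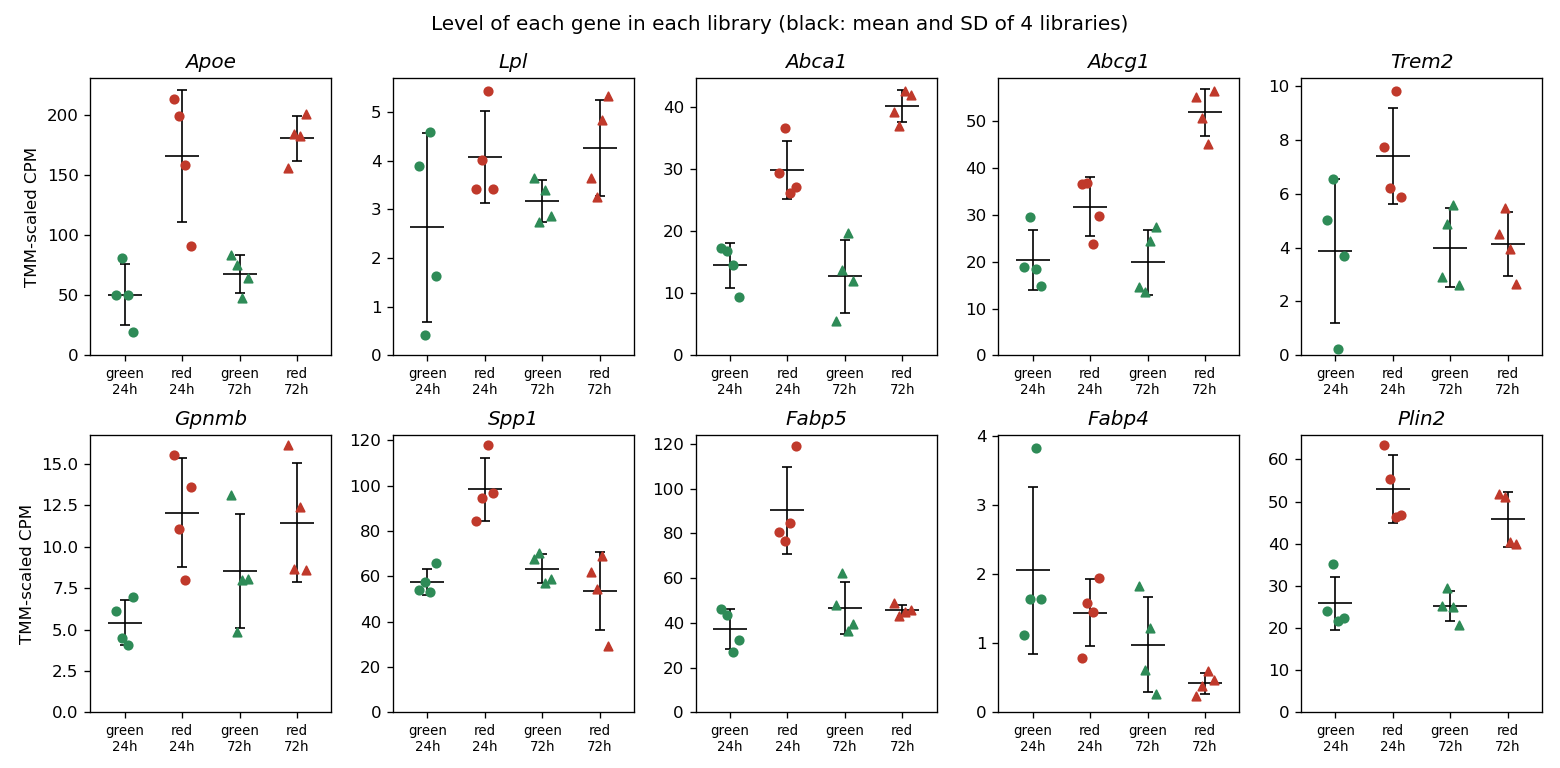
TMM-scaled CPM of the 10 genes in each library (points), with the mean and SD of the 4 libraries of a group in black, and circles for 24h and triangles for 72h. Apoe, Abca1 and Plin2 lie higher in every Kaede-red library than in any Kaede-green library. Fabp5 and Spp1 are high in Kaede-red cells at 24h and near the Kaede-green level at 72h, except Spp1 in Kaede-red replicate 4 (29.5 CPM), which lies below it.

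Among the genes of cholesterol export, Apoe, the apolipoprotein that macrophages secrete and that accepts cholesterol, had the largest log2 fold change between the colours over both times and at 24h, while at 72h that of Abca1 was larger. It lies on the minus strand of mm10 at chr7:19696109-19699188. Its level was 50.7, 81.5, 50.7 and 19.2 CPM among Kaede-green and 213.7, 199.5, 159.0 and 91.1 CPM among Kaede-red libraries at 24h (replicates 1 to 4). At 72h it was 84.1, 75.1, 47.9 and 64.5 CPM among Kaede-green and 155.8, 184.3, 182.5 and 201.5 CPM among Kaede-red libraries. The lowest Kaede-red library, replicate 4 at 24h, was still above the highest Kaede-green library, so the colours did not overlap at either time. The log2 fold change was 1.57 over both times (SE 0.20, adjusted p = 4.89e-07), which placed Apoe at rank 181 of 9642. It was 1.71 at 24h (SE 0.28, adjusted p = 0.000148) and 1.42 at 72h (SE 0.28, adjusted p = 0.000431). In the fit with the Rn45s share as a covariate the value over both times was 0.94 (adjusted p = 0.120), that at 24h 1.17 (adjusted p = 0.0519) and that at 72h 0.71 (adjusted p = 0.620), none of them called.

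Abca1 and Abcg1 are membrane transporters that move cholesterol to lipid-poor apolipoprotein A-I and to high-density lipoprotein particles, respectively. Abca1, on the minus strand of mm10 at chr4:53030787-53159895, was at 17.3, 16.8, 14.5 and 9.41 CPM among Kaede-green and 29.3, 36.5, 26.1 and 27.1 CPM among Kaede-red libraries at 24h. At 72h the values were 5.48, 13.7, 19.7 and 12.0 CPM among Kaede-green and 39.2, 36.9, 42.5 and 41.8 CPM among Kaede-red libraries. All Kaede-red libraries were above all Kaede-green libraries, and the Kaede-red libraries at 72h had an SD of 2.56 CPM around a mean of 40.1 CPM. The log2 fold change was 1.34 over both times (SE 0.18, adjusted p = 8.56e-07), 1.04 at 24h (SE 0.25, adjusted p = 0.00717) and 1.63 at 72h (SE 0.24, adjusted p = 1.52e-05). The call at 24h was lost with the Rn45s share as a covariate (0.89, adjusted p = 0.161).

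Abcg1, on the plus strand of mm10 at chr17:31057675-31117988, was at 19.0, 29.5, 18.3 and 14.7 CPM among Kaede-green and 36.6, 36.9, 23.8 and 29.7 CPM among Kaede-red libraries at 24h. Here Kaede-green replicate 2 was above Kaede-red replicate 3, and the difference of 0.64 on the log2 scale was not called (SE 0.24, adjusted p = 0.0972). Without that Kaede-green library it was 0.87 and was called (adjusted p = 0.0319), and scaled by library totals it was called too (0.87, adjusted p = 0.0113), a rise about as large as the median shift of all genes at 24h under that scaling (0.22). At 72h the values were 14.6, 13.4, 24.3 and 27.3 CPM among Kaede-green and 55.1, 50.7, 45.2 and 56.4 CPM among Kaede-red libraries. The colours no longer overlapped, and the log2 fold change was 1.37 (SE 0.23, adjusted p = 6.74e-05). Over both times it was 1.01 (SE 0.16, adjusted p = 2.76e-05), and with the Rn45s share as a covariate it was 0.47 (adjusted p = 0.500), while that at 72h went to 0.76 (adjusted p = 0.343). From 24h to 72h this difference moved by 0.72 on the log2 scale, which was not called (SE 0.33, adjusted p = 0.283), so the values at 24h and 72h are not shown to differ. An annotated gene model, Gm25447, overlaps Abcg1 on its strand and has no row of its own in the count files.

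Lpl encodes lipoprotein lipase, which cuts triglycerides in circulating lipoproteins. It was among the least counted members, with 1 to 18 counts in a Kaede-green library. Its level was 2.63 ± 1.95 CPM among Kaede-green and 4.08 ± 0.952 CPM among Kaede-red libraries at 24h, and 3.17 ± 0.434 and 4.27 ± 0.979 CPM at 72h (mean ± SD, n = 4). The colours overlapped at both times, and the difference over both times was 0.49 on the log2 scale (SE 0.28, adjusted p = 0.238). Kaede-green replicate 2 at 24h rested on 1 count, and without it the value was 0.31 (adjusted p = 0.444), while without Kaede-green replicate 3 at 24h it was 0.75 (adjusted p = 0.0891). A p that misses the threshold does not show that the levels were the same.

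Plin2, a coat protein of lipid droplets, was higher in Kaede-red cells at both times. It lies on the minus strand of mm10 at chr4:86648386-86670060. At 24h its level was 24.0, 35.2, 21.7 and 22.5 CPM among Kaede-green and 63.5, 55.5, 46.5 and 46.9 CPM among Kaede-red libraries. At 72h it was 25.2, 29.6, 25.1 and 20.8 CPM among Kaede-green and 51.7, 51.2, 40.4 and 40.0 CPM among Kaede-red libraries. The Kaede-green libraries reached 35.2 CPM in replicate 2 at 24h and the Kaede-red libraries started at 40.0 CPM, so there was no overlap. The log2 fold change was 0.96 over both times (SE 0.14, adjusted p = 6.21e-06), 1.04 at 24h (SE 0.20, adjusted p = 0.000986) and 0.87 at 72h (SE 0.20, adjusted p = 0.00213). After adding the Rn45s share as a covariate these were 0.81, 0.92 and 0.70 and none was called (adjusted p = 0.0767, 0.0564 and 0.412).

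The promoters of the members that were higher in Kaede-red cells over both times are shown as far as the RefSeq table holds them (build GRCm38.p6, 300 bases, 250 before the start and 50 from it on, on the gene's strand). The capitals mark matches, on either strand, to CACGTG, an E-box that factors of the MiT/TFE family among others bind, and to TGANTCA. The latter is looser than the element of AP-1 factors, TGA(C/G)TCA, and takes in other sequences too. For Apoe, the promoter of the most upstream of 3 starts is given (chr7:19699139-19699438, minus strand), with that of Abca1 (chr4:53159846-53160145, minus strand), Plin2 (chr4:86670010-86670309, minus strand) and Gpnmb (chr6:49036268-49036567, plus strand).
Apoe: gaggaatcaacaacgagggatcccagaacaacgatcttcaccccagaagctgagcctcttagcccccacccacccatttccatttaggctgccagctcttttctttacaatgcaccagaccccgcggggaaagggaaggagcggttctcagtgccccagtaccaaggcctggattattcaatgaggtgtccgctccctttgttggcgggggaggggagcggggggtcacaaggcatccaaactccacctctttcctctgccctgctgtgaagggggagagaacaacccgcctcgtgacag
Abca1: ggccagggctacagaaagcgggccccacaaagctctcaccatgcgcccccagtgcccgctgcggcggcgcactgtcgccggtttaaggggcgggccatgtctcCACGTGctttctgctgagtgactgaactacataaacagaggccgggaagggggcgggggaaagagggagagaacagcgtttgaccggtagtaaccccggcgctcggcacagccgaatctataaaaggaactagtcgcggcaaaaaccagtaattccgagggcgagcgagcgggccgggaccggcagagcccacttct
Plin2: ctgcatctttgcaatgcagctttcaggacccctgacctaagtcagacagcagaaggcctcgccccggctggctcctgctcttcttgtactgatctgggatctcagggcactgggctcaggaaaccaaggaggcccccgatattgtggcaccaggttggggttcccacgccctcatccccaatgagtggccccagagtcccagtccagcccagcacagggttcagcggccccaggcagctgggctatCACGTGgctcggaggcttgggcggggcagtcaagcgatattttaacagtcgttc
Gpnmb: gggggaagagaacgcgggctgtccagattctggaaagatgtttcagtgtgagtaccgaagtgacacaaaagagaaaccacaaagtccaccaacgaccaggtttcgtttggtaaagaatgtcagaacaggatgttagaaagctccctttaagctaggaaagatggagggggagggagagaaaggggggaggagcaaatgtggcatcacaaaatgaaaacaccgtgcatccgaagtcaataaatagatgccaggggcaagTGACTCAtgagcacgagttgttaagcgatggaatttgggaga

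The 300-base promoters of Abca1 and Plin2 each held 1 CACGTG, at bases 104 to 109 of the window for Abca1 and 247 to 252 for Plin2. Of all 32851 promoters in the table, 7.15% held this E-box. Gpnmb had 1 TGANTCA, at bases 259 to 265, and Trem2 had 1 at bases 242 to 248 (chr17:48346151-48346450, plus strand), where 7.81% of all promoters had a match. The match in Gpnmb reads TGACTCA, an AP-1 element. That in Trem2 reads TGAATCA, which is not, and the share over all promoters includes such matches. None of the 9 windows listed for Apoe (3), Spp1 (2), Abca1, Plin2, Gpnmb and Trem2 held the exact letters of the LXR element (direct repeat 4) or of the PPAR element (direct repeat 1). These exact letters were in 0.0152% and 0.0396% of all promoters, so a blank result was likely for any 9 windows. Variants of these letters were not searched for, so the result does not show that the windows lack such sites. Both CACGTG and TGANTCA read the same on either strand and do not overlap each other in these windows. Lpl, Abcg1, Fabp4 and Fabp5 had no entry in that table.

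Fabp4 and Fabp5 are small proteins that carry fatty acids in the cytoplasm. Fabp5 lies on the plus strand of mm10 at chr3:10012548-10016607. At 24h its level was 46.3, 43.4, 27.0 and 32.3 CPM among Kaede-green and 80.7, 76.6, 84.7 and 119.1 CPM among Kaede-red libraries. At 72h it was 47.9, 62.3, 36.2 and 39.5 CPM among Kaede-green and 48.8, 43.0, 44.9 and 45.8 CPM among Kaede-red libraries. At 24h every Kaede-red library was above every Kaede-green library, and at 72h the Kaede-red libraries lay inside the Kaede-green range. The log2 fold change was 1.29 at 24h (SE 0.21, adjusted p = 0.000130) and -0.02 at 72h (SE 0.21, adjusted p = 0.958), and the sign of the latter turned with scaling by library totals (0.15). Over both times it was 0.63 (SE 0.15, adjusted p = 0.00192). Fabp5 has near-identical processed copies in the mouse genome, and how reads that match several places were counted is not given in the sources used here, so its counts are uncertain to that extent.

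Fabp4 had few counts. It lies on the minus strand of mm10 at chr3:10204088-10208576. Kaede-green libraries held 2, 4, 15 and 4 counts at 24h and 5, 2, 5 and 1 at 72h, and Kaede-red libraries held 9, 13, 8 and 30 at 24h and 6, 15, 4 and 22 at 72h. After scaling these were 2.05 ± 1.20 and 1.44 ± 0.48 CPM for green and red libraries at 24h, and 0.979 ± 0.690 and 0.420 ± 0.155 CPM at 72h (mean ± SD, n = 4). It was the member with a negative log2 fold change between the colours over both times, -0.91, which was not called (SE 0.44, adjusted p = 0.149).

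Trem2, the receptor of the group, is found on the plus strand of mm10 at chr17:48346401-48354147 and signals through the adaptor Tyrobp. Its level was 5.02, 6.55, 0.255 and 3.68 CPM among Kaede-green and 7.73, 6.20, 9.80 and 5.88 CPM among Kaede-red libraries at 24h. At 72h it was 2.92, 4.89, 5.59 and 2.60 CPM among Kaede-green and 4.50, 5.47, 3.93 and 2.65 CPM among Kaede-red libraries. The colours overlapped at both times, and Kaede-green replicate 3 at 24h rested on 1 count. No difference between the colours was called: the log2 fold change was 1.04 at 24h (SE 0.44, adjusted p = 0.160), 0.04 at 72h (SE 0.40, adjusted p = 0.966) and 0.54 over both times (SE 0.30, adjusted p = 0.214). Without Kaede-green replicate 3 at 24h the values were 0.51 at 24h (adjusted p = 0.486) and 0.26 over both times (adjusted p = 0.509), and without Kaede-green replicate 2 they were 1.52 (adjusted p = 0.0622) and 0.77 (adjusted p = 0.0819).

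Gpnmb is a transmembrane glycoprotein that rises in macrophages under lysosomal stress, and lies on the plus strand of mm10 at chr6:49036546-49070929. At 24h its level was 6.13, 4.51, 4.08 and 6.95 CPM among Kaede-green and 15.5, 11.1, 7.98 and 13.6 CPM among Kaede-red libraries. At 72h it was 13.2, 4.89, 8.03 and 8.06 CPM among Kaede-green and 16.1, 8.65, 12.4 and 8.61 CPM among Kaede-red libraries. The colours were apart at 24h and overlapped at 72h, where Kaede-green replicate 1 was above the Kaede-red replicates 2, 3 and 4. The log2 fold change was 1.20 at 24h (SE 0.32, adjusted p = 0.0151) and 0.43 at 72h (SE 0.28, adjusted p = 0.321), and 0.82 over both times (SE 0.21, adjusted p = 0.00556). The value at 72h was 0.68 or 0.22 without Kaede-green replicate 1 or 2 at 72h and 0.21 without Kaede-red replicate 1 at 72h, and was called in none of these. Without Kaede-green replicate 3 at 24h the call at 24h was lost (1.05, adjusted p = 0.0812), and likewise without Kaede-red replicate 1 at 24h (1.07, adjusted p = 0.0584). With the Rn45s share as a covariate it was 1.30 at 24h (adjusted p = 0.0904) and 0.93 over both times (adjusted p = 0.228), neither called. The change of the difference with time was -0.77 and was not called (SE 0.43, adjusted p = 0.392).

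Spp1, on the plus strand of mm10 at chr5:104435118-104441050, encodes osteopontin, a secreted ligand of integrins and CD44. At 24h its level was 54.1, 57.4, 53.0 and 65.8 CPM among Kaede-green and 84.2, 94.5, 117.8 and 96.8 CPM among Kaede-red libraries. At 72h it was 67.6, 70.2, 56.9 and 58.8 CPM among Kaede-green and 62.0, 54.2, 68.8 and 29.5 CPM among Kaede-red libraries. At 24h the Kaede-red libraries were all above the Kaede-green libraries, and at 72h the colours overlapped, with Kaede-red replicate 4 the lowest of the 16 libraries. The log2 fold change was 0.77 at 24h (SE 0.21, adjusted p = 0.0200) and -0.24 at 72h (SE 0.21, adjusted p = 0.470), where it was -0.0409 without Kaede-red replicate 4. The call at 24h was lost without Kaede-green replicate 1 (0.73, adjusted p = 0.0583), Kaede-green replicate 3 (0.72, adjusted p = 0.0707) or Kaede-red replicate 3 (0.67, adjusted p = 0.0746), and without the shallowest library of each group (0.65, adjusted p = 0.136). Over both times the value was 0.26 and was not called (SE 0.15, adjusted p = 0.222). It was called with scaling by library totals (0.45, adjusted p = 0.0246), an increase about as large as the shift of all genes under that scaling. The gene model Gm42793 overlaps Spp1 on its strand and has no row in the count files.

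Time after photoconversion was compared next within each colour. In Kaede-green cells, which by 72h include cells that had longer to stay, 0 of the 10 genes and 0% of all tested genes were called by edgeR between 24h and 72h. At an unadjusted p under 0.05 there were 0 members and 835 of 9642 genes, and DESeq2 called 0 members and 13 genes, and edgeR with no filter 0 members and 37 genes. The members' log2 fold changes in these cells ranged from -1.20 (Fabp4) to 0.67 (Gpnmb). Without Kaede-green replicate 3 at 24h that of Fabp4 was -0.66, and without Kaede-green replicate 1 at 72h that of Gpnmb was 0.40.

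In Kaede-red cells, 4 of the 10 genes were called between 24h and 72h, where 8.68% of all tested genes were called in either direction. Fabp5 fell by 0.99 on the log2 scale (SE 0.20, adjusted p = 0.00297), from 90.3 ± 19.5 to 45.6 ± 2.41 CPM (mean ± SD, n = 4). Spp1 fell by 0.88 (SE 0.21, adjusted p = 0.00776), from 98.3 ± 14.1 to 53.6 ± 17.2 CPM. Fabp4 fell by 1.83 (SE 0.56, adjusted p = 0.0353) and Abcg1 rose by 0.71 (SE 0.22, adjusted p = 0.0373). In each of these the libraries of the 2 times did not overlap. The libraries of Trem2 (-0.82, SE 0.35, adjusted p = 0.150) and Abca1 (0.43, SE 0.22, adjusted p = 0.2497) did not overlap either and were not called, while Apoe (0.13), Plin2 (-0.21) and Gpnmb (-0.10) had overlapping libraries and were not called. How many of all tested genes had libraries that did not overlap, here or between the colours, was not counted. The calls of Fabp5 and Spp1 held when each of the 16 libraries was left out. The count was 2 instead of 4 without Kaede-red replicate 3 or 4 at 24h, or without Kaede-red replicate 1, 2 or 4 at 72h, each of which ended the calls of Abcg1 (0.62 to 0.72) and Fabp4 (-1.62 to -1.93). Abcg1 was also not called without Kaede-green replicate 3 at 24h (0.69, adjusted p = 0.0505) or with RLE factors (0.66, adjusted p = 0.0525), nor Fabp4 without Kaede-red replicate 2 at 24h (-1.78, adjusted p = 0.0858) or with no filter (-1.74, adjusted p = 0.117). The count of members was also 2 without the shallowest library of each group, and 0 with the Rn45s share as a covariate. In that fit Fabp5 was at -0.83 (adjusted p = 0.0538) and Spp1 at -0.63 (adjusted p = 0.101). Abcg1 was at 0.44 (adjusted p = 0.375) and Fabp4 at -1.49 (adjusted p = 0.325). The Rn45s share had a median of 75.7% in Kaede-red libraries at 24h and 68.2% at 72h. The 837 genes called in the whole table became 296 or 328 without Kaede-red replicate 3 or 4 at 24h, and 280, 537 or 394 without Kaede-red replicate 1, 2 or 4 at 72h.

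Kaede-red replicates 3 and 4 at 24h, which had the highest levels of Fabp5 and Spp1 in their group, differed from replicates 1 and 2 in other ways. Their Rn45s share was 83.1 and 84.9%, against 66.2 and 68.2%. Fibroblast markers summed to 37.7 and 40.1 CPM, against 20.6 and 21.2 CPM, dividing cell markers to 58.6 and 54.3 CPM, against 25.3 and 28.8 CPM, and erythroid markers to 11.1 and 9.95 CPM, against 1.93 and 2.31 CPM. Fabp5 and Spp1 in replicates 1 and 2 were still above all Kaede-red libraries at 72h. The part of these differences in the results was not tested.

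Whether the red-green difference itself changed from 24h to 72h was tested as an interaction of colour and time. Of the 10 genes, 1 was called, Fabp5, where 0.757% of all tested genes (73) were called in either direction. This number of genes ran from 2, without Kaede-red replicate 3 at 24h, to 155, without Kaede-red replicate 1 at 24h, and moved by more than 1.5 times when any 1 library was left out except Kaede-green replicate 1 or Kaede-red replicate 2 at 24h, or Kaede-green replicate 1 or 4 at 72h. Its difference fell by 1.32 on the log2 scale (SE 0.30, adjusted p = 0.0356). Spp1 had a change of -1.02 that was not called by edgeR (SE 0.30, adjusted p = 0.0800) and was called by DESeq2 (-1.03, adjusted p = 0.0256). The call of Fabp5 was lost when any 1 of 9 libraries was left out, Kaede-green replicate 2 or 3 or Kaede-red replicate 3 or 4 at 24h, or Kaede-green replicate 2 or any Kaede-red replicate at 72h, with values between -1.15 and -1.40 and adjusted p-values between 0.0511 and 0.1003. It was also lost with the Rn45s share as a covariate (-1.21, adjusted p = 0.0550) and without the shallowest library of each group (-1.41, adjusted p = 0.113).

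**Figure D3:**
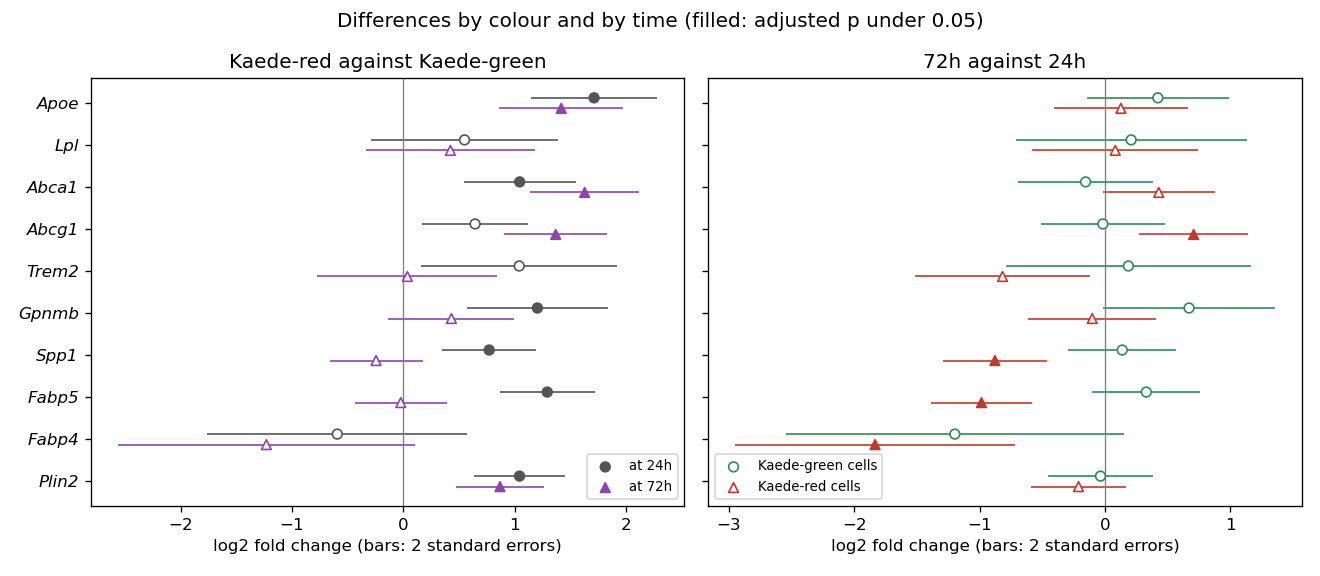
Log2 fold changes of the 10 genes between the colours at each time (left) and between the times in each colour (right), with bars of 2 standard errors on either side. Filled symbols were called at an adjusted p under 0.05, such as Fabp5 at 1.29 between the colours at 24h, and open symbols were not, such as Fabp5 at -0.02 at 72h.

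Levels were compared between genes per kilobase of annotated exon. This length joins the exons of all annotated transcripts of a gene and can exceed that of a single transcript. For Fabp4 it was 4489 bases, the whole span of the gene. The order of the genes given here depends on these lengths, and other lengths were not tried. In Kaede-red cells at 72h, Apoe was the most abundant at 84.7 ± 8.82 CPM per kb (mean ± SD, n = 4), ahead of Spp1 at 32.5 ± 10.4 CPM per kb, with no overlap between their libraries. Plin2 (13.05 CPM per kb) and Fabp5 (12.8 CPM per kb) followed, whose libraries overlapped, then Abcg1 (7.11), Abca1 (3.87), Gpnmb (1.76), Trem2 (0.837), Lpl (0.407) and Fabp4 (0.0936 CPM per kb), each apart from the next. In Kaede-red cells at 24h the libraries of Apoe (77.6 CPM per kb) and Spp1 (59.7 CPM per kb) overlapped. In Kaede-green cells Spp1 had the highest mean, 34.9 CPM per kb at 24h and 38.5 CPM per kb at 72h, with libraries that overlapped those of Apoe at 23.6 and 31.8 CPM per kb. Fabp4 and Lpl held the lowest positions in all 4 groups, at 0.0936 to 0.457 CPM per kb.

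For each member, the tested genes with a mean log2 CPM of at least 4 were searched for those with the most similar profile over the 16 libraries, by the root mean square difference of centred log2 CPM. Abcg1 was closest to Cd68, a macrophage lysosomal protein (0.22, against a spread of 0.66 for Abcg1 itself), and to Slc7a8, an amino acid transporter (0.24). The nearest to Abca1 were C3ar1, the receptor of complement C3a (0.27), and the lysosomal protease gene Ctsb (0.40), against 0.83. For Apoe they were Cxcl16, a chemokine and scavenger receptor (0.36), and Dab2, an endocytic adaptor (0.37), against 0.97. Plin2 ran closest to Plau, which encodes urokinase (0.23), and Pla2g7, a lipoprotein-associated phospholipase (0.23), against 0.53. Fabp5 was nearest to the lysosomal protease gene Ctsl (0.33) and Snx5 (0.33), against 0.54, Spp1 to Eif2s1 (0.25) and Clec4n (0.28), against 0.44, and Gpnmb to Osbpl8 (0.34) and Sqstm1 (0.36), against 0.59, so that these profiles were matched less closely for their spread. For the low-count members the nearest genes were further away: Gm13363 (0.49) and Ptp4a1 (0.51) for Lpl (0.76), Atpif1 (0.59) and Fam96a (0.60) for Fabp4 (0.90), and Rgs1 (0.73) and Hist2h3c2 (0.76) for Trem2 (0.99). Lpl, Trem2, Gpnmb and Fabp4 lay below this level themselves and so could not be listed as a nearest gene, and none of the other 6 members was.

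Beyond the members, 110 genes in 10 lists of lipid handling, chosen with earlier results of these data known, were followed in the same comparison of the colours over both times. Of these, 84 were tested, 35 were higher and 4 lower in Kaede-red cells, and their median log2 fold change was 0.44, beside 0.06 and 10.05% called higher over all tested genes. Of them 8 were called with the Rn45s share as a covariate, 7 of which are among the genes named here: Pltp (1.33), Lipg (1.36), Cd36 (1.85), Tyrobp (-1.13), Trem1 (-1.44), Mmp12 (2.31) and Ctsd (1.01). The other named genes that were called lost their call in that fit, and their values in it follow with each list. Without that covariate, 18 of the 84 genes were higher and 5 lower at 24h, and 32 were higher and 3 lower at 72h. Of all tested genes, 3.22% were called higher at 24h and 8.06% at 72h. The lists of fatty acid transport and lipid droplets had 0 genes called at 24h, and 3 and 2 higher at 72h.

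**Figure D4:**
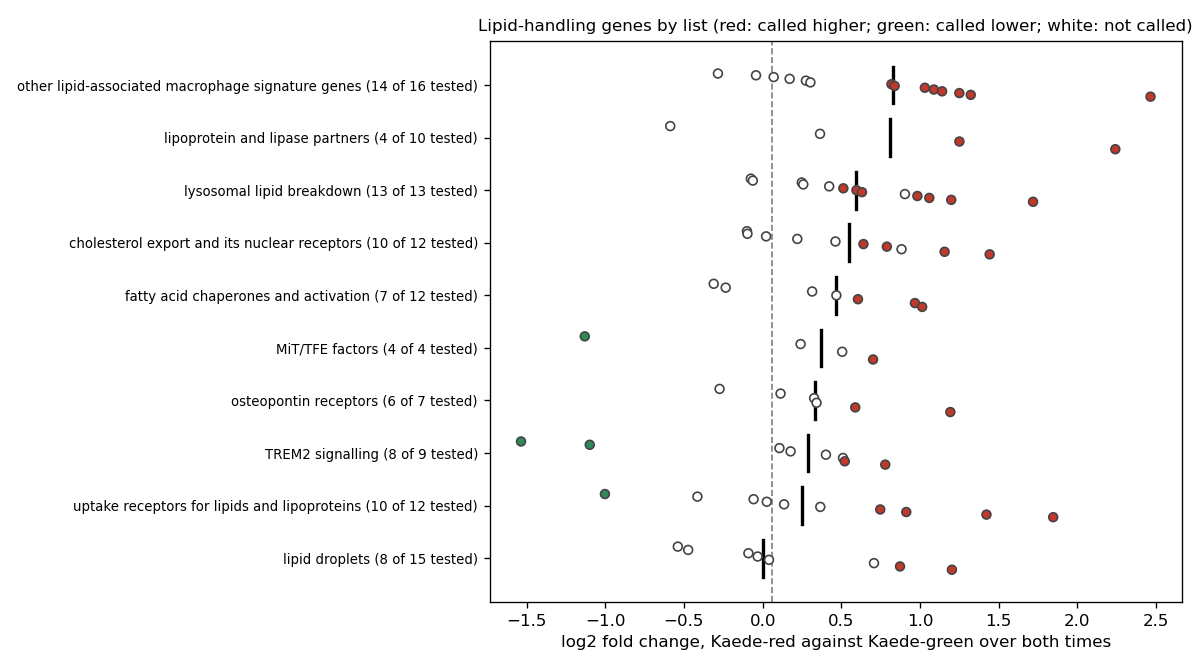
Red-green difference (log2) averaged over 24h and 72h for the tested genes of 10 lipid-handling lists (points; red called higher, green called lower, white not called). The black bar is the median of a list, from 0.83 for the signature genes to 0.00 for the lipid droplet genes, and the dashed line is the median of all tested genes, 0.06.

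The partners of Apoe and Lpl on lipoproteins were mostly at low counts, with 4 of 10 tested, 2 higher and none lower (median 0.81). Pltp, the phospholipid transfer protein, was higher by 2.24 on the log2 scale (SE 0.23, adjusted p = 1.23e-08) and Lipg, endothelial lipase, by 1.25 (SE 0.18, adjusted p = 4.45e-06). Apoc2, the activator of lipoprotein lipase, had a value of -0.59 and was not called (SE 0.23, adjusted p = 0.0706), but was called without replicate 4 of Kaede-green cells at 24h (-0.74) or 72h (-0.67) or Kaede-red replicate 2 at 72h (-0.73). Apoc1, Gpihbp1, which carries lipoprotein lipase to capillaries, and Angptl4, its inhibitor, did not pass the filter on low counts. Among receptors that take up lipids and lipoproteins, 4 of 10 tested genes were higher and 1 lower (median 0.25). Cd36, a fatty acid and lipoprotein scavenger receptor, was higher by 1.85 (SE 0.29, adjusted p = 1.79e-05) and Mertk, a receptor for dying cells, by 1.42 (SE 0.27, adjusted p = 0.000184). With the Rn45s share Mertk was at 1.34 (adjusted p = 0.101).

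The list of cholesterol export held the nuclear receptors that are known to induce Abca1, Abcg1 and Apoe. Of its 10 tested genes 4 were higher and none lower (median 0.55). Nr1h3, which encodes LXR alpha, was higher by 1.44 (SE 0.23, adjusted p = 1.55e-05), in every Kaede-red library above every Kaede-green library. Pparg was higher by 1.16 (SE 0.32, adjusted p = 0.00886). Nr1h2, which encodes LXR beta, was higher by 0.64 with an adjusted p of 0.0487 (SE 0.23), a call that was lost without any of 12 libraries, all but Kaede-green replicate 2 and Kaede-red replicate 3 at 24h and Kaede-green replicate 4 and Kaede-red replicate 3 at 72h (0.48 to 0.67). It was also lost with RLE factors (0.61, adjusted p = 0.0574) and with the replicate numbers as a block (0.63, adjusted p = 0.0587). Without the shallowest library of each group the call of Nr1h2 was lost as well (0.67, adjusted p = 0.0875). Given the Rn45s share, Nr1h3 was at 1.30 (adjusted p = 0.0581), Pparg at 0.74 (adjusted p = 0.656) and Nr1h2 at 0.15 (adjusted p = 0.950). Among the partners of Trem2, 2 of 8 tested genes were higher and 2 lower (median 0.29). At 24h 0 were higher and 2 lower (median -0.08), and at 72h 3 were higher and 2 lower (median 0.44). Tyrobp, the adaptor of Trem2, was lower in Kaede-red cells (-1.10 on the log2 scale, SE 0.15, adjusted p = 1.48e-06), with all Kaede-red libraries below all Kaede-green libraries. Trem1, a related receptor that uses the same adaptor, stood at -1.54 (SE 0.20, adjusted p = 9.96e-07).

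Around Fabp4 and Fabp5, 3 of 7 tested genes of fatty acid transport and activation were higher and none lower (median 0.47), among them Cpt1a, which brings fatty acids into mitochondria, by 1.01 (SE 0.24, adjusted p = 0.00251), and Acsl1, a fatty acid activating enzyme, by 0.97 (SE 0.33, adjusted p = 0.0364). The call of Acsl1 was lost without any of 11 libraries, all but Kaede-green replicate 4 and Kaede-red replicates 1 and 2 at 24h and Kaede-green replicate 2 and Kaede-red replicate 3 at 72h (0.85 to 1.00), and without the shallowest library of each group (0.82, adjusted p = 0.145). Of the lipid droplet genes beside Plin2, 2 of 8 tested were higher and none lower (median 0.00): the droplet lipase Pnpla2 by 1.20 (SE 0.32, adjusted p = 0.00717) and Plin3 by 0.87 (SE 0.24, adjusted p = 0.00981). Of the genes that break down lipid in lysosomes, 7 of 13 were higher and none lower (median 0.60). The highest were Pla2g15, a lysosomal phospholipase, at 1.72 (SE 0.33, adjusted p = 0.000253), and Lipa, the acid lipase that frees cholesterol from its esters, at 1.20 (SE 0.21, adjusted p = 7.35e-05). Without Kaede-green replicate 2 at 24h Pla2g15 was at 2.93 (adjusted p = 8.17e-08). In the fit with the Rn45s share Cpt1a was at 0.98 (adjusted p = 0.279), Acsl1 at 1.56 (adjusted p = 0.142), Pnpla2 at 0.64 (adjusted p = 0.743) and Plin3 at 0.76 (adjusted p = 0.528). Pla2g15 was at 1.46 (adjusted p = 0.154) and Lipa at 0.97 (adjusted p = 0.183) in that fit.

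Of 14 tested genes that are listed beside the members in lipid-associated macrophage signatures, 8 were higher and none lower (median 0.83), led by Mmp12, macrophage elastase, at 2.47 (SE 0.25, adjusted p = 1.28e-08) and the protease gene Ctsd at 1.32 (SE 0.16, adjusted p = 1.61e-07). Of the 4 MiT/TFE factors, which drive lysosomal genes and Gpnmb, all were tested, 1 was higher and 1 lower (median 0.37). At 24h 0 were higher and 1 lower (median -0.04), and at 72h 0 were called (median 0.74). Mitf was higher by 0.70 (SE 0.25, adjusted p = 0.0440), a call lost without any of 11 libraries, all but Kaede-green replicates 1 and 3 and Kaede-red replicates 3 and 4 at 24h and Kaede-green replicate 1 at 72h (0.57 to 0.74), and with RLE factors (0.67, adjusted p = 0.0555). It was also lost with the replicate numbers as a block (0.72, adjusted p = 0.0505). Tfec was at -1.13 (SE 0.28, adjusted p = 0.00344), a call lost without the shallowest library of each group (-0.77, adjusted p = 0.0866), and Tfeb was not called (0.24, SE 0.30, adjusted p = 0.628; 0.0740 without Kaede-green replicate 2 and 0.11 without Kaede-red replicate 3 at 72h). For Spp1, 2 of the 6 tested genes of osteopontin receptors were higher and none lower (median 0.33), Itga9 by 1.19 (SE 0.24, adjusted p = 0.000491) and Itgb5 by 0.59 (SE 0.19, adjusted p = 0.0297). The call of Itgb5 was lost without any of 8 libraries, Kaede-green replicates 3 and 4 and Kaede-red replicates 2 and 3 at 24h and replicates 1 and 2 of either colour at 72h (0.43 to 0.58), and without the shallowest library of each group (0.52, adjusted p = 0.113). When the Rn45s share was included, Mitf was at 0.68 (adjusted p = 0.626), Tfec at -1.73 (adjusted p = 0.0898), Itga9 at 1.12 (adjusted p = 0.171) and Itgb5 at 0.46 (adjusted p = 0.678).

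Several of the members are also expressed by fat cells, so the makeup of the sort was read from marker lists over both times. The 10 macrophage and myeloid markers were all tested, with 6 higher and 1 lower in Kaede-red cells, and a mean summed level of 1735 and 954 CPM for green and red libraries at 24h and of 1394 and 1413 CPM at 72h. Their most abundant gene, Lyz2, was the lower one (-1.24, adjusted p = 1.97e-05), while the macrophage marker Adgre1 was higher (1.53, adjusted p = 8.06e-09). The 9 adipocyte markers summed to 3.04 and 2.50 CPM at 24h and to 3.02 and 6.74 CPM at 72h for the 2 colours in the same order, and at 72h every Kaede-red library (5.45 to 8.02 CPM) was above every Kaede-green library (1.46 to 4.42 CPM). Most of this was Lipe, a hormone-sensitive lipase, the 1 marker tested, at 2.53 and 6.63 CPM at 72h, whose difference for both times together was not called (0.71, adjusted p = 0.102). At 24h Kaede-green replicate 1 had a sum of 6.69 CPM and the other Kaede-green libraries 0.41 to 3.28 CPM. The order of the colours at 24h rests on that library. Adipoq had 4 counts in all 16 libraries together, Lep 6 and Plin1 2, so that the defining markers of fat cells were near 0.

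Markers of endothelial cells summed to 14.96 and 21.9 CPM for green and red libraries at 24h and to 14.9 and 31.4 CPM at 72h, led by Kdr, with 2 higher and 1 lower of 3 tested. Fibroblast markers summed to 48.3 and 29.9 CPM at 24h and 51.0 and 17.4 CPM at 72h, led by Col3a1, with 3 of 5 tested genes lower in Kaede-red cells. Neutrophil markers summed to 7.79 to 17.5 CPM as group means, of which Csf3r (1 of 1 tested, higher) had 7.08 to 16.4 CPM, with Ngp at 0 counts and Ly6g absent from the files. Dendritic cell markers summed to 2.43 to 4.25 CPM and had 1 of 2 tested genes higher, Ccr7, which led the list in Kaede-red cells, while Cd209a, which led it in Kaede-green cells, was not called. T and NK cell markers summed to 1.07 to 2.91 CPM, with Trac absent from the files, and the 1 tested gene, Cd4, was higher and led the list in Kaede-red cells, where Ncr1 led it among Kaede-green libraries at 24h and Cd8a at 72h. Tumour epithelial markers summed to 0.351 to 1.86 CPM (Cdh1) with 0 tested, B cell markers to 0.359 to 1.18 CPM with 1 tested, Cd79b, and not called, which led the list except in Kaede-green cells at 24h, where Cd79a did, and erythroid markers to 1.34 to 7.03 CPM (Hba-a1) with 2 tested and not called. The 6 dividing cell markers, all tested and none called, were led by Top2a and summed to 43.3 and 41.8 CPM at 24h and to 43.1 and 24.99 CPM at 72h. The gates on CD45, TER119 and NK1.1 are meant to leave out fat, endothelial, fibroblast, tumour, erythroid and NK cells. RNA of the fibroblast markers Col1a1, Col1a2 and Col3a1 was still counted in every library. What part the cells behind these markers, the Rn45s share or the depth have in the differences of the 10 genes was not tested beyond the fit with the Rn45s share.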

How the data were processed

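RNA from sorted CD11b+ tumour cells was made into stranded total RNA libraries. Per the labels and the study's methods, the authors used Trim Galore for trimming and HISAT2 for alignment to mm10, and deposited raw counts per gene from featureCounts, whose strand setting is not given in the sources used here. The combined table holds the same whole numbers and was not used. Counts were tested with edgeR 4.0.16 in R 4.3.3: filterByExpr, TMM, 1 mean per group over 16 libraries, the quasi-likelihood test and Benjamini-Hochberg adjustment over 9642 genes, called at an adjusted p under 0.05. The test was first tried on simulated data, where its aim for recovered genes had to be lowered because low-count genes were missed. Log2 CPM used a prior count of 2. Levels per kb used the joined GENCODE exons of all transcripts of a gene. Replicate pairs within groups differed beyond sampling noise (chi-square per gene 2.74 to 15.0). Depths and precision stand with the results. Named were all 10 members, in each list the called genes with the 2 largest changes and 11 genes with a direct role for a member, and the 2 nearest profiles of each member; Adgre1 and the markers named beside it come from the marker lists. The members and lists were chosen with earlier results of these data known. Alternatives were RLE factors, scaling by library totals outside Rn45s, Lars2 and Mir6236, no filter, DESeq2 1.42.0, a replicate block, the Rn45s share as a covariate, only the 8 libraries compared, leaving out each library, and, chosen after seeing the data, leaving out the library of each group with the fewest counts outside the ribosomal rows. The p-values of the fits set a difference between groups against the spread between these libraries. They treat the libraries as independent, although Kaede-green and Kaede-red libraries may share tumours.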

Additional observations from a re-analysis of the deposited data

Results flagged for a closer look

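The red-green difference of Fabp5 changed between 24h and 72h by -1.32 on the log2 scale, by the test of the interaction of colour and time in edgeR (SE 0.30, adjusted p = 0.0356; 0.00128 to 0.113 over the alternatives). It was higher in 4 of 4 Kaede-red libraries than in any Kaede-green library at 24h, and within the Kaede-green range in 4 of 4 at 72h. In the 40 groups of 4 libraries formed by the 10 genes, no library stood apart from the others by Dixon's criterion, although 3 came near it: Trem2 in Kaede-green replicate 3 at 24h with a gap of 0.798 of the range, Plin2 in Kaede-green replicate 2 at 24h with 0.791 and Fabp5 in Kaede-red replicate 4 at 24h with 0.772. Without this last library the change of Fabp5 was -1.15 and was not called (adjusted p = 0.1003).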

How the results depend on the processing

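The counts of members called between the colours (6 at 24h, 4 at 72h and 6 for the mean of both) stayed within 1.5 times under RLE factors, library totals, no filter, DESeq2, the replicate block and the fits of 8 libraries (at 24h and 72h), and ranged from 4 to 7, from 4 to 4 and from 6 to 6 when each library was left out. With the Rn45s share as a covariate they were 2, 1 and 2, the members called between times in Kaede-red cells were 0 instead of 4, those whose difference changed with time 0 instead of 1, and the lipid-handling genes called 8 instead of 39; the members' median log2 fold changes in that fit were 1.04 at 24h, 0.51 at 72h, 0.82 for the mean of both and -0.21 between times in Kaede-red cells, against 1.04, 0.43, 0.73 and -0.16. The Rn45s share and the colour move together, and the cause was not tested. DESeq2 called 2 members for the change with time (Fabp5 and Spp1), and gave no adjusted p to Fabp4 between times in Kaede-red cells and to 2 members for the change with time. Without the 4 shallowest libraries the members called between times in Kaede-red cells were 2 and those whose difference changed 0, with fewer libraries. Leaving out each library gave 2 to 4 and 0 to 1 for these. Calls in the whole table were 2541 over both times with library totals (1920 higher, 621 lower), 942 at 24h (700 and 242, against 310 and 413) and 1951 at 72h (1319 and 632, against 777 and 845); for the change with time they were 32 and 38, against 41 and 32. For that change they were 321 with DESeq2, 216 with no filter and 3 without the 4 shallowest libraries, against 73. Without those libraries 435 genes were called at 24h, against 723, and 326 between times in Kaede-red cells, against 837, where DESeq2 called 1263. With the Rn45s share these 6 comparisons had 156, 206, 101, 0, 110 and 34 calls.

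Values near 0 turned sign, none of them called. Trem2 at 72h was -0.00619 with RLE factors, -0.00128 with DESeq2, -0.00170 in the fit of 8 libraries and -0.0274 without the 4 shallowest libraries, and ranged from -0.14 to 0.24 when each library was left out. Fabp5 at 72h was 0.15 with library totals, 0.12 with no filter, 0.29 with the Rn45s share and 0.0315 without the 4 libraries (leaving out each: -0.14 to 0.13). With the Rn45s share Spp1 at 72h was 0.36 and Apoe between times in Kaede-red cells -0.14 (leaving out each: -0.0748 to 0.28). Between times in Kaede-green cells, Abca1 was 0.16 and Abcg1 0.0748 without the 4 libraries, and leaving out each gave -0.47 to 0.06 for Abca1, -0.20 to 0.20 for Abcg1, -0.15 to 0.76 for Lpl, -0.35 to 0.66 for Trem2 and -0.14 to 0.14 for Plin2. In Kaede-red cells it gave -0.0657 to 0.26 for Lpl, -0.32 to 0.0507 for Gpnmb and, with no turn of sign, -0.27 to -0.10 for Plin2, and -0.70 to 0.21 for the change of Lpl with time.

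The replicate numbers were not taken to pair the libraries, and whether they do is not known: deviations from the group means correlated between same-numbered Kaede-green and Kaede-red libraries by 0.0493 to 0.15 at 24h and -0.02 to 0.0287 at 72h, above 0.1 in 1 of 8 pairs, and 4 of 8 libraries at 24h and 0 of 8 at 72h correlated best with their own number. With the replicate block, 6, 6, 4, 0, 4 and 1 members were called in the 6 comparisons and 39 lipid-handling genes, the same counts as without it. Mitf and Nr1h2 were the named genes whose call was lost with the block (adjusted p = 0.0505 and 0.0587). Kaede-green counts of some members are low: Fabp4, Lpl and Trem2 had 1 to 23 counts in a Kaede-green library.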
